A study of Homo sapiens with 8 samples.

Results

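The region around CDKN2A on the short arm of chromosome 9 was examined for LSD1 occupancy in MDA-MB-231 cells. The 3 genes MTAP, CDKN2A and CDKN2B and the window from 21300000 to 22700000 (hg19) that holds them were given by position, and membership used no summit value, although the region was taken up with earlier results of these data known. Within that window, 0 of the 201526 summits of the 4 LSD1 lists were found, and 0 of the 8153 summits on chromosome 9. MDA-MB-231 is a human triple-negative breast cancer cell line that is reported to lack CDKN2A. LSD1 was profiled by CUT&RUN, in which an antibody directs a nuclease to cut the chromatin around its target, in parental cells and in RCOR2-KO1 cells, 2 libraries of each. The knockout cells carried a CRISPR/Cas9 disruption of RCOR2 in the same line, and the copy number of 9p21 was measured here in neither genotype. The methods speak of several KO clones being mixed, after a passage on another line, and it is unclear whether this holds for MDA-MB-231. They also speak of CUT&RUN having been done 2 times. They and the labels do not say whether these were separate cultures, so p-values measure only the spread between libraries, which may be technical.

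CDKN2A gives rise to both p16INK4a, which inhibits the kinases CDK4 and CDK6 and so keeps the retinoblastoma protein active, and p14ARF, which restrains the ubiquitin ligase MDM2. Its neighbor CDKN2B encodes p15INK4b, an inhibitor of the same kinases. MTAP encodes an enzyme of the pathway that salvages methylthioadenosine into methionine and adenine. The 3 genes are often deleted together in human tumors. LSD1 removes methyl groups from lysine 4 of histone H3, and RCOR2 is a scaffold that joins it to HDAC1 and HDAC2 in a CoREST complex. A summit is the single base of highest signal in a peak that the authors called with MACS2 in 1 library against rabbit IgG, and a stretch that is absent from the genome can hold no peak. A stretch that is present but free of LSD1, or that cannot be mapped, holds none either. A gap between summits therefore does not show a deletion by itself. It sets the largest extent only for a deletion of every copy in all cells, and only if the summits at its edges are true. A deletion of only some copies, or in only some cells, could run past its edges.

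The starts of the 3 genes lie inside the gap described next, and their promoter sequences are shown because these are the gene starts at which no LSD1 summit was called in any library. RefSeq holds 4 starts for them, and the 250 bases before each are given 5′ to 3′ with positions of GRCh38.p14. The summits are in hg19 and were not compared with these positions. Capitals mark each CG dinucleotide, which reads the same on both strands.
MTAP, chr9:21802386-21802635, plus strand: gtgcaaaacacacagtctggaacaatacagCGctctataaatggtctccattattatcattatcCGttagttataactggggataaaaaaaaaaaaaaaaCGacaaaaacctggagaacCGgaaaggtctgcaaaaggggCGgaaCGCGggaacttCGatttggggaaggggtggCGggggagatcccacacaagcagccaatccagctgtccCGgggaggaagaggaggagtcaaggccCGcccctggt
CDKN2A upstream start, chr9:21995325-21995574, minus strand: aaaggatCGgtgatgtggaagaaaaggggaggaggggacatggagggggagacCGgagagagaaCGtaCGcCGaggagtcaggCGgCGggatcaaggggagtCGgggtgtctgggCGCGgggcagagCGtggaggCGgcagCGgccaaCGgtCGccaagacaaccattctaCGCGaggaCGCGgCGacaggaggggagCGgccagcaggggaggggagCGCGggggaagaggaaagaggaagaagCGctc
CDKN2A downstream start, chr9:21974858-21975107, minus strand: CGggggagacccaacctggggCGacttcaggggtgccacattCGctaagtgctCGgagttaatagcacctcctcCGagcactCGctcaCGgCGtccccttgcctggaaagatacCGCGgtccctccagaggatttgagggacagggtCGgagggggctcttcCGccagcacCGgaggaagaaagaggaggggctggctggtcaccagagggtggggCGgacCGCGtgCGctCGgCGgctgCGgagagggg
CDKN2B, chr9:22009306-22009555, minus strand: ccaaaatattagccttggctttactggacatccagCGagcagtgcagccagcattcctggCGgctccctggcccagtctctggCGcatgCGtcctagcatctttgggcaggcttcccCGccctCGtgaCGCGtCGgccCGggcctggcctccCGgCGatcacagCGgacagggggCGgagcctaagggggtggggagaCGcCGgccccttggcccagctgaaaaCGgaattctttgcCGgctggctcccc
The downstream CDKN2A start is that of p16INK4a. CG was counted 11 times before MTAP, 24 and 20 times before the upstream and downstream starts of CDKN2A, and 18 times before CDKN2B, against a median of 11 over the 35116 promoters of the table. At least 1 CG was present in 93.9% of all promoters. At least as many as before MTAP were found in 50.3% of all promoters. The share with at least as many was 23.7% for the upstream CDKN2A start, 32.4% for its downstream start and 36.8% for CDKN2B. GC content was 50% before MTAP, 66.8% before each CDKN2A start and 66.4% before CDKN2B, with a median of 58.0% over all promoters.

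A single gap ran over all 3 genes in every library, and it was far longer than the window (map of summits by distance from CDKN2A). In parental replicate 1, no summit was listed between 20732357 and 25678026, a gap of 4.95 Mb. In parental replicate 2, the gap ran from 20732307 to 25677914 and was also 4.95 Mb long. Both parental gaps thus ended at nearly the same places. In RCOR2-KO1 replicate 1, it ran from 20755312 to 25094614, which is 4.34 Mb. In RCOR2-KO1 replicate 2, it ran from 20755362 to 25678131, which is 4.92 Mb. The stretch free of summits in all 4 lists was that from 20755362 to 25094614. Its length of 4.34 Mb is the largest extent that a deletion of every copy around CDKN2A could have. This holds if no listed summit of any library lay in deleted sequence. The stretch was decided on its upper side by 1 summit of RCOR2-KO1 replicate 1, and without that library the common gap was 4.92 Mb.

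**Figure D1:**
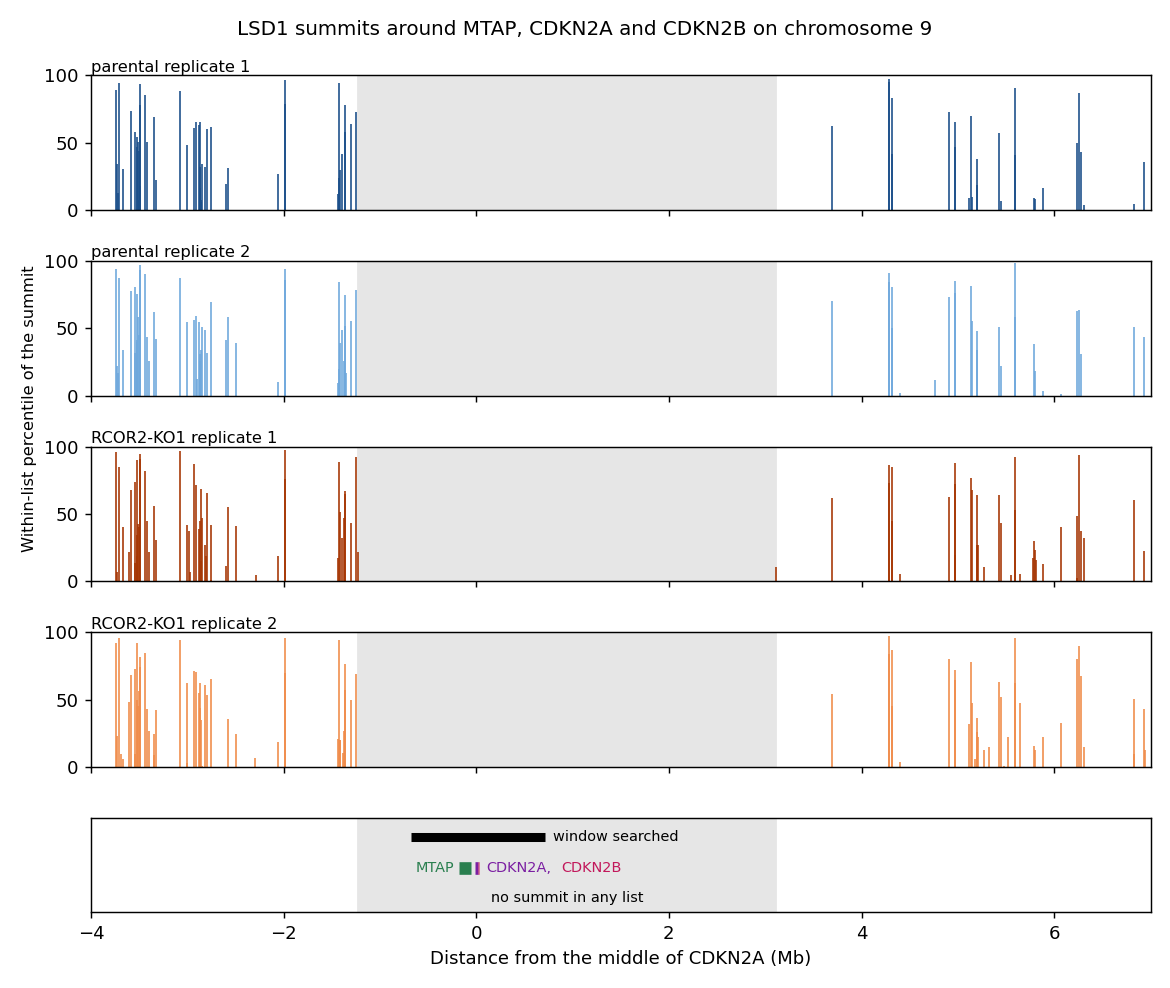
LSD1 summits in each of the 4 lists by distance from the middle of CDKN2A in Mb (x axis), each line reaching up to the within-list percentile of the summit (y axis, in percent); the lowest panel shows MTAP, CDKN2A, CDKN2B and the window searched. The shaded stretch of 4.34 Mb holds no summit in any list, and summits resume on both sides in all 4.

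Summits per gene were 0 in every library for MTAP (21802 to 21931 kb), CDKN2A (21967 to 21995 kb) and CDKN2B (22002 to 22010 kb). Stretches of this length often held none. The share of empty genes was not computed, and windows were set without regard to genes. Among windows of the same length set every 10 kb along chromosome 9, no summit of any list was found in 43.6% for the length of MTAP, 70.1% for CDKN2A and 87.2% for CDKN2B. In windows that did not touch the longest gap of the chromosome, these shares were 33.8%, 64.8% and 84.9%. An empty gene was thus no result on its own. The window of 1.4 Mb was less often empty, in 18.9% of 13918 such windows, and in 5.7% of the 11668 windows that did not touch the longest gap of the chromosome, which spans the centromere. Windows inside the CDKN2A gap itself are among those counted. At the mean rate of the chromosome outside each list's longest gap, 16.1 to 18.7 summits per Mb, an even spread would have placed 22.6 to 26.2 summits per list in the window and 69.9 to 81.1 in the common gap. Summits are not spread evenly, so these numbers give a scale and no test.

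The nearest summit below MTAP was 1.07 Mb away in both parental libraries and 1.05 Mb away in both RCOR2-KO1 libraries. Above CDKN2B, the nearest summit was 3.67 Mb away in parental replicate 1, parental replicate 2 and RCOR2-KO1 replicate 2, and 3.08 Mb away in RCOR2-KO1 replicate 1. The genes therefore lay nearer to the lower edge of the gap. For CDKN2A itself, the distances were 1.21 to 1.23 Mb below and at most 3.68 Mb above. In the RefSeq annotation of GRCh38, 18 protein-coding genes stand between MTAP and FOCAD on the lower side, of which 16 are type I interferon genes (IFNE, IFNB1, IFNW1 and the IFNA genes) and the others are KLHL9 and HACD4. Above CDKN2B, the next protein-coding genes in order are DMRTA1, ELAVL2, IZUMO3 and TUSC1. Which of these neighbors lie within the gap was not analysed here, since that table is of another build.

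Compared with gaps elsewhere on chromosome 9, the gap over CDKN2A ranked 2 in all 4 lists, among 1912 to 2222 gaps per list (plot of gap length by rank). Only the gap over the centromere, 21.1 to 24.5 Mb, was longer. The next in rank measured 3.39 to 3.41 Mb and was not the same stretch in all lists. In parental replicate 2 it lay over 41955056 to 45357063, and in RCOR2-KO1 replicate 2 over 7902010 to 10265310. The gap over CDKN2A was 227 to 289 times the median gap of its list, which was 17.1 to 19.2 kb. Of windows as long as the common gap, 12.3% of 13624 held no summit in any list, all of them within the centromeric gap. Of the 11080 windows that did not touch the centromeric gap, 0 were empty. That 0 was fixed by the length chosen, since no window of it fits between the edge summits of the CDKN2A gap and no other such gap was as long. These shares therefore add nothing to the rank.

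**Figure D2:**
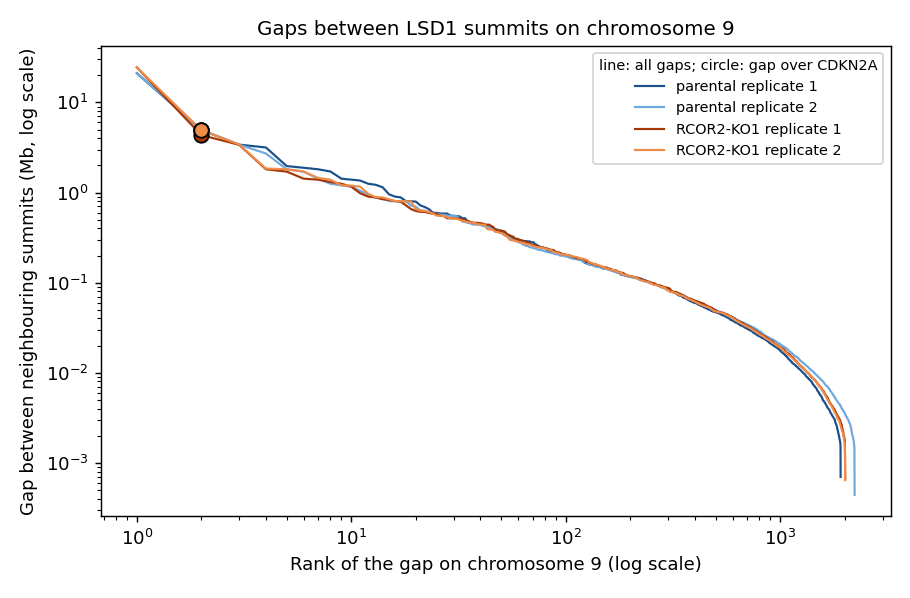
Length of every gap between neighboring LSD1 summits on chromosome 9 (y axis, Mb, log scale) by its rank within the list (x axis, log scale), 1 line per library, with the gap over CDKN2A as a circle. All 4 circles lie at rank 2, at 4.34 to 4.95 Mb, next to the centromeric gap of 21.1 to 24.5 Mb.

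Gaps of several Mb were also found where no deletion was asked about. On chromosome 9, 11 common gaps were at least 1 Mb long. One of these ran from 7902010 to 10265310 on the same arm (2.36 Mb, with 2.71 to 3.41 Mb in single lists), and another from 16425828 to 18238366 (1.81 Mb). Over chromosomes 1 to 22 and X, the gap over CDKN2A ranked 8 among common gaps, and 6 of the 7 longer ones span a centromere, whose positions were taken from general knowledge of hg19. Among gaps that span none it ranked 2, after one on chromosome X from 31949558 to 36627862 (4.68 Mb) and just before one on chromosome 7 from 66767475 to 71098608 (4.33 Mb). The last differed from it by less than the spread between the 4 lists at CDKN2A. In single lists, its rank among gaps that span no centromere was 4 in parental replicate 1, 2 in parental replicate 2, 5 in RCOR2-KO1 replicate 1 and 3 in RCOR2-KO1 replicate 2.

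The sides of the gap differed in how densely LSD1 was called. The 1 Mb below the common gap held 12 to 14 summits per list, and the 1 Mb above it held 1 to 2. This upper edge was set by 1 summit of RCOR2-KO1 replicate 1, at percentile 10.9. In the other lists the gap went on to between 25677914 and 25678131, so much of that 1 Mb lay inside their own gaps. Counts from the first shared region upward were not made. Edges of the other gaps below were likewise set by any summit of any list. Within 5 Mb, 13.4 to 15.2 summits per Mb were listed below and 6.8 to 8.4 above, against 16.1 to 18.7 for the chromosome. Fewer summits were thus listed above the gap than below it in every library, and both sides were below the chromosome's rate. These 5 Mb were also counted from the edges of the common gap. Above it they began inside the gaps of the lists other than RCOR2-KO1 replicate 1, which lowered the rates of those lists. In RCOR2-KO1 replicate 1, which set the upper edge, 14.4 summits per Mb were listed below and 8.4 above. For the X gap of 4.68 Mb, the same 1 Mb held 10 to 16 summits below and 5 to 7 above, and for the chromosome 7 gap of 4.33 Mb it held 17 to 22 below and 0 to 6 above. The next gaps in length did not have such a dense lower side, with 5 to 6 summits below and 8 to 9 above on chromosome 16 (3.95 Mb), and 0 to 1 below and 1 to 3 above at another on X (3.90 Mb). The part of sparse occupancy in the length of the CDKN2A gap was not tested. Copy number was not measured, and libraries of genomic DNA or IgG were not used here.

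The summits at the edges were described by their rank in their own list, since the −log10 values depend on depth. Summits at most 500 bp apart were joined into a region. The last region below the gap that all 4 lists share lay between 20732185 and 20732357, with −log10 values of 32.4 and 44.0 in the parental libraries and 70.5 and 27.7 in the RCOR2-KO1 libraries. In within-list percentiles these were 72.8 and 78.2 against 92.4 and 69.1, so the genotypes overlapped and RCOR2-KO1 replicate 1 was the highest. The first shared region above the gap lay between 25677853 and 25678131, with −log10 values of 24.3 and 34.7 in parental cells and 25.2 and 18.2 in RCOR2-KO1 cells. Its percentiles were 62.4 and 70.6 in parental cells and 62.2 and 54.1 in RCOR2-KO1 cells. The lower parental and the higher RCOR2-KO1 percentile nearly coincided. How often regions elsewhere show no overlap was not computed, so nothing was read from the order here. Between these shared regions, the gap measured 4.95 Mb.

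Only RCOR2-KO1 lists had a summit further in. A region between 20755312 and 20755362 was found in both RCOR2-KO1 lists, with −log10 values of 7.69 and 2.06 and percentiles of 21.9 and 0.311, and in no parental list. It was weak in each, and in RCOR2-KO1 replicate 2 it stood among the lowest values of the list. Regions of both RCOR2-KO1 lists and no parental list made up 3.19% of the 2794 regions on chromosome 9. A further summit at 25094614 was found in RCOR2-KO1 replicate 1 alone, with a −log10 value of 5.22 and a percentile of 10.9. Regions of 1 list only made up 22.6% of the regions on chromosome 9, so such a summit is common.

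These 2 weak regions set the whole difference in gap length between the genotypes. The gap was 4946 ± 0.0438 kb in parental cells and 4631 ± 413 kb in RCOR2-KO1 cells (means with SD over 2 libraries). The difference of -315 kb had p = 0.333 in a two-sided exact permutation test, and no lower p can be reached with n = 2 per genotype. Both RCOR2-KO1 gaps were shorter than both parental gaps, and the difference was -22.9 kb without RCOR2-KO1 replicate 1 and -606 kb without RCOR2-KO1 replicate 2. In the upper 50% of each list, where neither weak region is present, the difference was 0.0830 kb. Over the genes themselves every library had 0 summits, so the genotypes could not be compared there.

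Beside the gap, the regions found in all 4 lists were compared between the genotypes (plot of percentiles beside the gap). Within 2 Mb of either edge, 55 regions were found, 28 of them in all 4 lists, which is 50.9% against 50.5% for chromosome 9. Their mean percentile was 62.8 and 62.9 in the parental libraries and 63.7 and 63.1 in the RCOR2-KO1 libraries. This gave 62.8 ± 0.0988 in parental and 63.4 ± 0.394 in RCOR2-KO1 cells (mean ± SD, n = 2 each). By a two-sided exact permutation test, the difference of 0.545 points gave p = 0.333, again the lowest that can be reached. Without RCOR2-KO1 replicate 1 the difference was 0.0274. Of the 28 regions, 18 ranked higher and 10 lower in RCOR2-KO1 cells, against 686 and 726 of the shared regions on chromosome 9. Below the gap, 14 ranked higher and 6 lower, with mean percentiles of 59.6 and 57.5 in parental and 60.4 and 59.1 in RCOR2-KO1 libraries. Above it, 4 ranked higher and 4 lower, with 70.6 and 76.5 against 71.9 and 73.1, so the mean percentiles of the genotypes overlapped on each side. The difference between the sides was not tested. These flanks held 1.84% ± 0.0583 of the chromosome's summits in parental and 2.09% ± 0.139 in RCOR2-KO1 cells (n = 2 each, p = 0.333 by the same exact test). Both edges of the common gap are summits of RCOR2-KO1 lists alone and were counted in the flanks, which raised the RCOR2-KO1 share by construction. The difference of 0.250 points turned to -0.0573 in the upper 50% of each list. A region chosen after its values were seen, between 20558831 and 20558867 and 0.196 Mb from the edge, had percentiles of 94.4 and 84.1 in parental cells and 88.8 and 94.5 in RCOR2-KO1 cells.

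**Figure D3:**
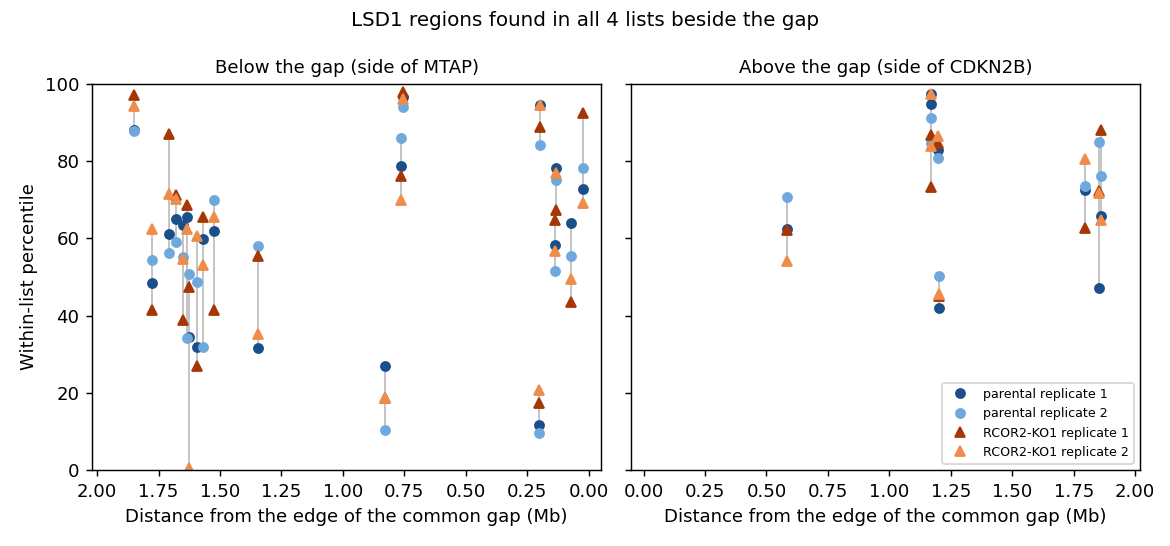
Within-list percentile (y axis) of the 28 LSD1 regions found in all 4 lists within 2 Mb of the common gap, by distance from its lower edge (left) or upper edge (right) in Mb (x axis), with circles for parental and triangles for RCOR2-KO1 libraries and a grey line from the lowest to the highest library. There are 20 regions on the lower side and 8 on the upper side, and the first region above the gap is 0.583 Mb from its edge.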

How the data were processed

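LSD1 CUT&RUN was analysed in 2 parental and 2 RCOR2-KO1 libraries of the line. The submitters' processing notes name FastQC 0.11.2, Bowtie2 2.3.3.1, Picard, MACS2 2.1.0 and hg19. The deposited lists give each peak's summit (1 bp) with the −log10 of a p or q value that the authors obtained with MACS2, in 1 library at a time; the lowest was 1.31 to 1.40, so weaker binding is not listed. Lists held 47354 to 54467 summits, with no peak number missing. Depth is unknown and the IgG libraries were not used here. Window and genes were given by position, and these members and the lists and tests were chosen with earlier results of these data known. Gaps between neighboring summits on chromosomes 1 to 22 and X, windows and 500 bp regions were computed with Python 3.11.15, numpy 2.4.6 and pandas 2.3.3, and figures drawn with matplotlib 3.10.9. The steps were tested on lists with stretches emptied on purpose: 200 of 200 such stretches and 196 of 200 regions removed from both parental lists were recovered. Once a stretch is emptied its edges follow directly, so this checked the code alone and not what a gap means. The percentile is the share of a list at or below a value. Genotypes were compared over libraries by exact permutation tests. Genes to be named were MTAP, CDKN2A and CDKN2B, with other genes' summits only given an annotation of hg19, which was not used here. From another build, neighboring genes were named in order, with no coordinates. The window held no region, so the percentile was compared in the flanks within 2 Mb of the gap, as chosen after seeing the data.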

Additional observations from a re-analysis of the deposited data

How the results depend on the processing

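The edges at shared regions, the centromere and off-gap counts and all values for the flanks were chosen after seeing the data. The number of summits in the window and at the 3 genes was 0 in all lists, so settings that drop or pair summits could give no other value there. The common gap of 4339 kb was 4945 kb in the upper 50% of each list and between regions found in all 4 lists, and 4922 kb with at most 1 summit inside; it was 4339 kb to 4923 kb with each library left out. It ranked 2 on chromosome 9 in all settings confined to that chromosome and 8 over chromosomes 1 to 22 and X. Empty windows as long as the common gap were 1.81% over chromosomes 1 to 22 and X, against 12.3% on chromosome 9. Off the longest gap they were 0%, which the length chosen fixed in advance. The difference in gap length, -315 kb, turned to 0.0830 kb in the upper 50% of each list, since both weak edge regions drop out, and was -606 kb to -22.9 kb with each library left out. The difference in flank summits turned to -0.0573 points in the upper 50%, the cause was not tested, and was 0.152 to 0.348 with each library left out; for the flank percentile this range was 0.0274 to 1.18. A replicate block, which pairs libraries by their number, left the difference in gap length at -315 kb by construction (exact paired test, p = 0.5, the smallest possible). Differences between replicates in parental and RCOR2-KO1 cells had a correlation of 0.00722 over shared regions, so no effect shared by libraries of the same number was seen. The correlation cannot tell whether such libraries were prepared together, and the labels do not say. No percentile in the window was computed, since no region is there.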
